A study of Mus musculus with 90 samples.

Results

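The comparison set 3 single knockout cells rich in platelet transcripts against 11 knockout cells picked as non-megakaryocytes, across all genes of 1 expression table. The 3 cells were chosen by their readout: of the 5 knockout megakaryocyte-like (KO MK) cells in the table without outliers, those with at least 1000 TPM of Pf4 were kept. The 11 knockout non-megakaryocyte (KO NMK) cells were those of 13 in that table that remained without B1-1b and B1-2a, which were left out as failed libraries. Together they were 14 of the 33 cells in that table, of 46 in the full table and of 90 labelled samples. The 3 KO MK cells were 1B, B1-3 and 1A, named by the replicate names in their titles. What the letters A and B and the title prefix B1 stand for is not given by the labels.

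Mice carried floxed Runx1 with the Mx1-Cre recombinase (labelled MxCre1+/- RUNX1f/f) in the knockout, or lacked the recombinase (MxCre1-/-) in the wild-type (WT) controls, and both received 4 injections of poly(I:C). Hematopoietic stem cells positive for CD41, which is the product of Itga2b, were taken from the mice 4 weeks after injection and cultured for 2 days. Megakaryocyte-like (MK) and other (NMK) cells were then picked by their look for SMART-Seq libraries of 1 cell each. Mx1-Cre is driven by interferon and acts in many blood and other tissues, and the labels do not say which mouse or culture a cell came from. Each group therefore counted as 1 sample, no test was possible, and every difference below is a description of these cells.

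Megakaryocytes are the large marrow cells that shed platelets. They copy their DNA repeatedly without dividing, load alpha granules with clotting and growth factors, display the adhesion and agonist receptors that platelets later use, and push out tubulin-filled proplatelets. RUNX1 works in this lineage beside GATA1, FLI1 and NF-E2, and people born with a damaged RUNX1 copy have few and poorly working platelets.

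Promoter sequence is shown for 4 platelet genes that were high together in the 3 cells and low in the 11: the granule chemokines Pf4 and Ppbp and the surface receptors Gp9 and Gp6. The sequences are from RefSeq on GRCm38.p6, run 5′ to 3′ on the strand of the gene and end at the base before its start. Capitals mark GATAA or TTATC (the core bound by GATA factors), GGAAG or CTTCC (an ETS core) and TGTGGT or ACCACA (a RUNX core), searched on both strands. No marked copy overlaps another. Pf4 is chr5:90772185-90772434 (plus strand), Ppbp is chr5:90768268-90768517 (plus strand), Gp9 is chr6:87777820-87778069 (plus strand) and Gp6 is chr7:4397745-4397994 (minus strand).
Pf4: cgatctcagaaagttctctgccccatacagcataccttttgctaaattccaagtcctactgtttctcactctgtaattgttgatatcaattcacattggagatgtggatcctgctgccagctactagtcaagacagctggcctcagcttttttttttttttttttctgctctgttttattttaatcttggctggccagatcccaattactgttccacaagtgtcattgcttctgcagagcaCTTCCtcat
Ppbp: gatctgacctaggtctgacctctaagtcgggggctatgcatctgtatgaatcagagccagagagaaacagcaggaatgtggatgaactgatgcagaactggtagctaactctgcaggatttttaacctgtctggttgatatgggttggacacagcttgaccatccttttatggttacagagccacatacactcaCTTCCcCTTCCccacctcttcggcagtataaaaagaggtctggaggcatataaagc
Gp9: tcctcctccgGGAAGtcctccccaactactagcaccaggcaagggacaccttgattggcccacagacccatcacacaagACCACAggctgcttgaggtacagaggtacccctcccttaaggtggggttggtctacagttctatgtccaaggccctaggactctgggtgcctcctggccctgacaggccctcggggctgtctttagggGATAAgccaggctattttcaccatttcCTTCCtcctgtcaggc
Gp6: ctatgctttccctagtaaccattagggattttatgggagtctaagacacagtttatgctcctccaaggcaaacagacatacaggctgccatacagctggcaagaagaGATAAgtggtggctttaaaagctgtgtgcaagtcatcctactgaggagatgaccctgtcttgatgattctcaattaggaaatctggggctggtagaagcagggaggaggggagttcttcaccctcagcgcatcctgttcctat
The Gp9 stretch held 1 GATA, 2 ETS and 1 RUNX match, while Pf4 and Ppbp held ETS matches only. Of the 39 platelet list genes that lay above every NMK cell, 30 matched a RefSeq promoter, with 34 promoters in all. The GATA letters stood in 26.5% of these, the ETS letters in 67.6% and the RUNX letters in 11.8%. Over all 32851 promoters of the same length the shares were 22.6%, 64.1% and 14.05%, and over the 10728 promoters of genes measured here 15.8%, 69.1% and 11.1%. A match describes these letters in this window and is not a binding site.

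Values are TPM, a transcript abundance per length scaled to the same total in every cell, so the read depth behind them is unknown. The 3 KO MK cells had 12428 to 14487 genes above 0 and the 11 KO NMK cells 6443 to 10987, without overlap. That difference moves with every count of higher genes below, and its part in them was not tested. Mitochondrial transcripts took 5.69% to 6.15% of the total in the KO MK cells and 5.38% to 8.10% in the KO NMK cells. The score of 14 housekeeping genes, their mean log2(TPM + 1), was 9.30 to 9.49 against 9.47 to 10.09. Alpha granule genes alone took 1.89% to 5.50% of all transcripts in the KO MK cells and at most 0.10% in the KO NMK cells.

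The targeted gene came first as a check of the labels. Runx1 was at 31.8, 47.5 and 12.6 TPM in KO MK cells 1B, B1-3 and 1A, and at 0 to 41.5 with a median of 11.2 in the KO NMK cells. The groups overlapped. WT MK cells had 7.6 to 22.2 TPM, so Runx1 transcript was found in the 3 cells labelled knockout, and 1B and B1-3 lay above every WT MK cell. TPM covers all exons of a gene, floxed or not, so this value checks neither the deletion nor the label.

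The label of the 3 cells was read against 9 megakaryocyte markers. Pf4, a chemokine of alpha granules and the gene the cells were selected on, stood at 26885, 13752 and 18922 TPM in 1B, B1-3 and 1A and at 3.4 to 587.0 with a median of 125.7 in the KO NMK cells. The lowest selected cell was B1-3, and the next KO MK cells below the limit were 2 with 213.7 and B1-4 with 65.8 TPM. No KO MK cell of this table lay near the limit itself.

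Ppbp, which encodes the chemokine precursor of platelet basic protein, was at 23854, 2218.8 and 12778 TPM against 0 to 133.0 with a median of 0.3. Gata1, the transcription factor that drives the megakaryocyte and red cell programme, was at 302.1, 285.1 and 152.0 TPM against a highest KO NMK value of 0.1. Itga2b stood at 263.4, 317.9 and 167.9 TPM against 0 to 68.1 with a median of 17.5. All 3 KO MK cells lay above every KO NMK cell for each of these genes, and cell B1-3 was the lowest of the 3 for Ppbp. Of the other 5 markers, Gp9, Gp1bb, Gp6, Vwf and Tubb1, none overlapped between the groups. Tubb1, the beta tubulin of platelets, was the lowest of the 9 markers at 5.1, 7.6 and 5.8 TPM, against at most 0.3 in the KO NMK cells.

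**Figure D1:**
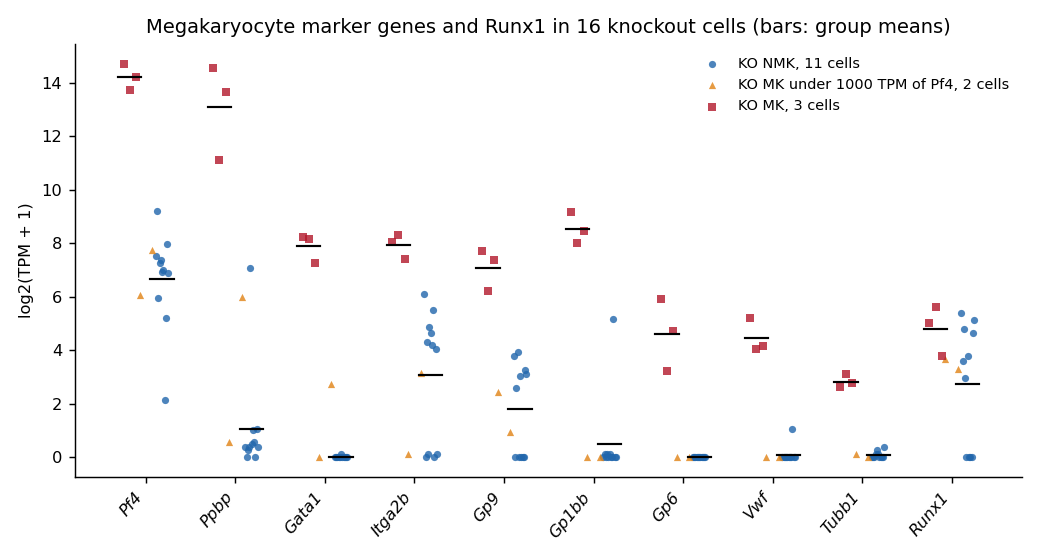
Level of 9 megakaryocyte markers and Runx1 as log2(TPM + 1) in the 3 KO MK cells (squares), the 2 KO MK cells under the Pf4 limit (triangles) and the 11 KO NMK cells (circles), with bars at the means of the KO MK and KO NMK cells. The squares stand above every circle for all 9 markers, with Pf4 at 13752 TPM or more, while Runx1 overlaps.

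Across the table, 12068 genes reached a mean of 1 TPM on a side, and differences are given as the mean log2(TPM + 1) of the 3 KO MK cells minus that of the 11 KO NMK cells. This scale understates differences of low genes. Of these genes, 586 (4.86%) were at least 1 higher with all 3 KO MK cells above every KO NMK cell, which is called apart and higher below. Apart and lower were 125 (1.04%), and 225 without B1-3. Differences of 1 or more were found in 3817 genes (31.6%) and of -1 or less in 1147 (9.5%), and the larger limits of 2 and -2 in 1464 (12.1%) and 330 (2.73%). The median difference of all genes was 0.42, and lists are read against it and against these shares. With the ratio of mean TPM in place of mean logs, 793 genes were higher and 1010 lower by 2, so the balance between higher and lower genes depends on the scale.

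Zeros shape these counts. In all 3 KO MK cells 7894 genes reached 1 TPM, but only 2160 did so in all 11 KO NMK cells. A gene at 0 in 1 KO NMK cell cannot be apart and lower, whatever its level in the others. No KO NMK cell reached 1 TPM for 226 genes that reached it in all 3 KO MK cells. The 3 KO MK cells ranked genes alike, with Spearman correlations of 0.83 to 0.86 over 3 pairs, while the KO NMK cells gave 0.52 to 0.66 over 55 pairs. Between the groups the correlations were 0.47 to 0.68 over 33 pairs, so they spanned the range found within the KO NMK cells.

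The 15 genes named for the greatest excess included secreted, surface and cytoskeletal proteins of platelets. Thbs1, the granule protein thrombospondin, was at 888.1, 233.7 and 314.4 TPM in 1B, B1-3 and 1A and listed at 0 in all 11 KO NMK cells. Clu, the secreted chaperone clusterin, was at 1043.5, 459.5 and 467.0 TPM against at most 0.6, a difference of 9.16 with a pooled SD between cells of 0.33. Clec1b, the podoplanin receptor CLEC-2 of platelets, was at 848.7, 110.7 and 642.2 TPM against at most 0.2. All 3 were apart and higher, with 1B the highest cell for each.

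Sdpr, a caveola protein also known as Cavin2, had the second greatest difference at 9.33, with 1225.1, 660.1 and 1018.0 TPM against a median of 0. Treml1, a receptor stored in alpha granules, was at 741.0, 321.9 and 407.0 TPM against 0 to 11.7. Gp1bb, a subunit of the von Willebrand factor receptor, was at 574.4, 253.4 and 349.5 TPM, and its highest KO NMK cell reached 34.9. For Sdpr, Gp1bb and Ppbp a single KO NMK cell held nearly all of that group's signal, and no KO MK cell overlapped it.

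The chemokine gene Cxcl5 lies beside Ppbp and Pf4 in the cluster on chromosome 5 (GRCm38; Cxcl5 at 90759360-90761624, Ppbp at 90768518-90770063, Pf4 at 90772435-90773383, all on the plus strand). Its values were 374.0, 211.4 and 222.9 TPM against at most 0.2. All 3 genes of the cluster were thus apart and higher, with pooled SDs of 0.20 for Cxcl5, 1.98 for Ppbp and 1.67 for Pf4. Serpinb2, an inhibitor of plasminogen activators (chromosome 1, 107511423-107535478, plus strand), was at 665.3, 351.4 and 396.4 TPM against 0 to 2.7.

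Slpi, a secreted protease inhibitor, varied widely within the KO MK cells, at 2847.1 TPM in 1B, 1147.9 in 1A and only 6.2 in B1-3, against at most 0.6 in KO NMK cells. Lilrb4a, an inhibitory immunoglobulin-like receptor, was at 584.3, 316.0 and 414.2 TPM against 0 to 127.6. It has close paralogs, so its reads may be shared with them. Gadd45g, a stress gene, was at 602.1, 298.6 and 537.5 TPM against 0 to 62.0. The 3 KO MK cells differed from each other by 2 or more in 10.1% to 11.7% of genes, pair by pair.

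**Figure D2:**
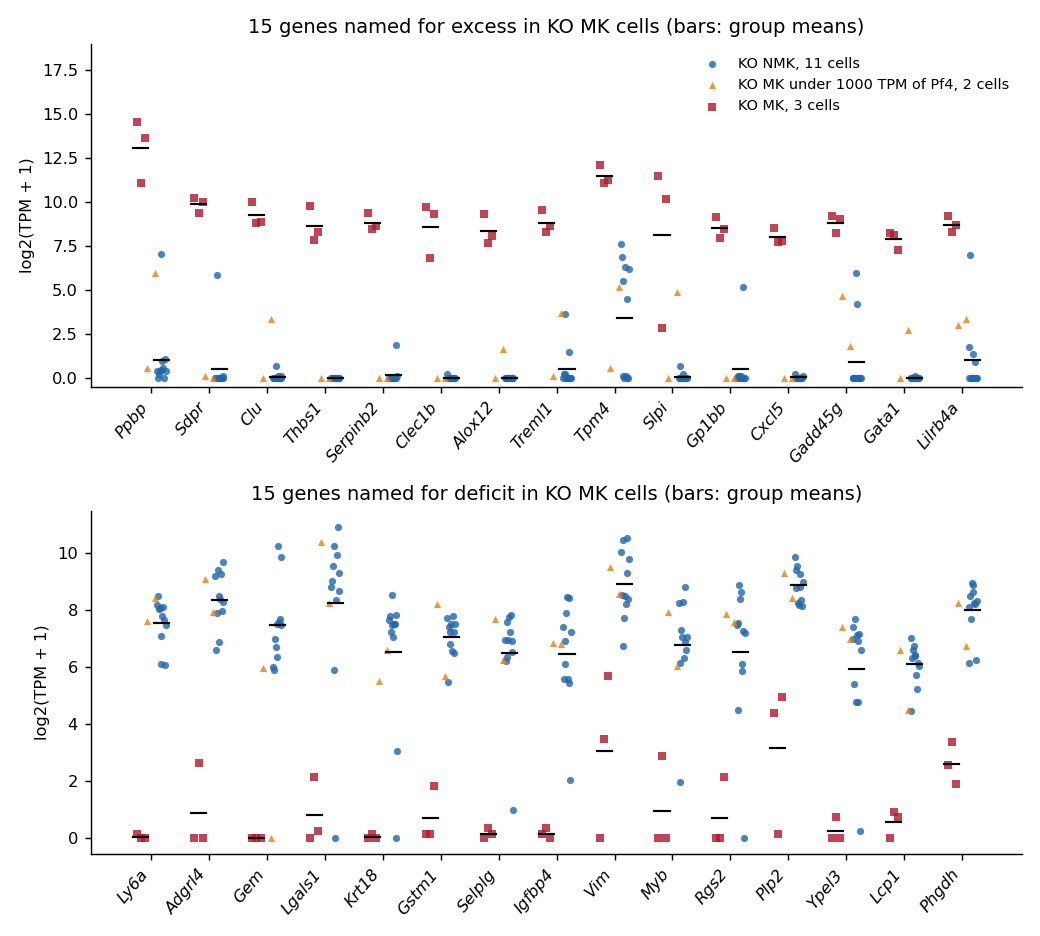
The 15 genes named for excess (above) and the 15 named for deficit (below) as log2(TPM + 1) in the 3 KO MK cells (squares), the 2 KO MK cells under the Pf4 limit (triangles) and 11 KO NMK cells (circles), with bars at the means of the KO MK and KO NMK cells. Excess genes run from Ppbp with a difference of 12.04 to Lilrb4a with 7.73, and the squares for Slpi spread from 6.2 to 2847.1 TPM.

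Alpha granule cargo was high as a group. Of its 17 measured genes, 14 were at least 1 higher, none was 1 or more lower, and 10 were apart, with a median difference of 4.37 against 0.42 for all genes. Part of this was fixed by selecting cells on Pf4, which is in the list. Selp, the adhesion protein P-selectin, was at 373.6, 133.4 and 226.9 TPM against a median of 0 and a highest value of 116.1. Vwf, the von Willebrand factor, reached 36.2, 15.4 and 16.9 TPM against at most 1.1. Timp3, a metalloprotease inhibitor, was highest in B1-3 at 835.4 TPM, with 259.9 in 1B and 169.3 in 1A, against 0 to 48.2. These 3 genes were apart, while F13a1, a clotting transglutaminase, was at 349.5 TPM in 1B but at 3.0 and 6.6 in the others and overlapped.

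Not all cargo differed. Srgn, the proteoglycan serglycin that packs granules, was at 449.4, 277.3 and 318.6 TPM against 181.0 to 441.6, a difference of 0.20. Angpt1, a vessel growth factor, was at 74.9, 54.7 and 41.1 TPM against a median of 65.9. Both overlapped, though 1B lay above every KO NMK cell for Srgn.

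Adhesion receptors gave a similar count, with 15 of 18 measured genes at least 1 higher, none lower and 12 apart, and a median difference of 4.26. Gp5, part of the von Willebrand factor receptor, was at 957.5, 758.8 and 339.8 TPM against a median of 0.1 and a highest value of 96.2. Itgb3, the partner of Itga2b in the fibrinogen receptor, was at 331.4, 131.2 and 179.3 TPM against 0 to 21. Gp6, the collagen receptor, was at 59.2, 8.3 and 25.2 TPM and listed at 0 in all KO NMK cells. Each was apart and higher. Gp1ba, which binds von Willebrand factor itself, was at 233.3, 37.2 and 22.0 TPM, and cell 1A lay below the highest KO NMK cell at 24.7. Itgb1, the beta 1 integrin of many cell types, was at 286.6, 396.2 and 180.4 TPM against 28.8 to 377.8 and overlapped.

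Agonist receptors and their signalling proteins had the fullest shift, with 22 of 23 genes at least 1 higher, 17 apart and a median difference of 3.89. F2rl2, the cofactor through which mouse platelets sense thrombin, was at 2287.4, 2316.5 and 1958.9 TPM against 0 to 210.6. P2ry1, an ADP receptor, was at 213.7, 167.5 and 124.1 TPM against 0 to 16.7. Lat, a signalling adaptor, was at 394.2, 367.1 and 381.6 TPM against 0 to 56.9. All 3 genes were apart, and the KO MK cells lay close together for F2rl2 and Lat.

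Rap1b, the small GTPase that switches on platelet integrins, was among the most abundant of these transcripts at 10331, 9388.1 and 8911.8 TPM against 367.5 to 1026.1, a difference of 3.89 (pooled SD 0.39). Fcer1g, the signalling chain of Gp6, was at 4150.8, 2574.3 and 4214.6 TPM against 0 to 1054.3. P2ry12, the ADP receptor that antiplatelet drugs block, was barely found, at 1.5, 0 and 2.7 TPM, and listed at 0 in every KO NMK cell. Plcg2, the phospholipase downstream of these receptors, overlapped, at 71.6, 115.4 and 102.4 TPM against 9.1 to 216.3.

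Enzymes that make lipid mediators divided. Of 10 measured, 4 were at least 1 higher, 1 was lower and 3 were apart, with a median of 0.65. It was 0.36 without KO NMK cell 4A, 0.93 without KO MK cell 1A and -0.05 in cells with the prefix B1 alone. Over all genes, 31.6% were at least 1 higher and 9.5% at least 1 lower, near the shares of these enzymes, and 4.86% were apart and higher. Alox12, the platelet lipoxygenase (chromosome 11, 70241457-70255353, minus strand) and a gene that RUNX1 is known to activate in human megakaryocytic cells, was at 653.1, 200.9 and 269.9 TPM and listed at 0 in all 11 KO NMK cells. Alox5, the lipoxygenase of leukotriene synthesis, was at 254.2, 100.1 and 161.1 TPM against at most 0.1. Tbxas1, the thromboxane synthase, was at 114.4, 40.1 and 36.0 TPM against 0 to 17. These 3 were apart, whereas Ptgs1, the cyclooxygenase that supplies thromboxane synthase, overlapped at 36.0, 24.0 and 17.5 TPM against 5.4 to 49.8. Ltc4s, the leukotriene C4 synthase, was low in the KO MK cells, at 0, 1.2 and 0 TPM against a median of 27.0.

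In the cytoskeleton list, 19 of 30 genes were at least 1 higher, 3 were lower, 12 were apart and higher and 2 apart and lower, with a median of 1.62. Tpm4, a tropomyosin of platelets, was at 4515.3, 2181.1 and 2428.7 TPM against 0 to 199.9. Vcl, the focal adhesion protein vinculin, was at 103.1, 86.0 and 78.5 TPM against 0 to 43.8. Tubulins did not go one way. Tubb2a was apart and higher, at 162.5, 150.0 and 125.9 TPM against 0 to 105.5, and Tubb5 apart and lower, at 285.3, 675.7 and 222.8 TPM against 679.6 to 1719.7. Tubulin genes are near copies, so reads may be shared among them. Stmn1, a protein that takes microtubules apart, was apart and lower at 365.2, 480.2 and 444.2 TPM against 2356.5 to 9675.2.

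Among genes for granule building and release, 17 of 27 were at least 1 higher, none lower and 7 apart, with a median of 1.42. Slc35d3, needed for dense granules, was at 146.9, 343.3 and 182.5 TPM against a median of 0 and a highest value of 34.7. Rab27b, a GTPase of granule release, was at 154.8, 147.2 and 105.1 TPM against 0 to 21.6. Vps33b, needed to form alpha granules, was at 109.0, 112.0 and 90.0 TPM against 0 to 63.4. Nbeal2, the gene of gray platelet syndrome, overlapped at 4.1, 6.0 and 2.8 TPM against 0 to 21.8, and the granule membrane protein Cd63 was alike in both groups at 1650.6, 855.5 and 1483.4 against 533.0 to 2052.7.

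The transcription factors of the lineage differed less than its platelet genes: 12 of 24 were at least 1 higher, 4 lower and only 2 apart, with a median of 1.12. Gata1 and its cofactor Zfpm1 (11.5, 12.6 and 11.6 TPM against 0 to 8.6) were the apart ones. The shares over all genes were 31.6% at least 1 higher, 9.5% at least 1 lower and 4.86% apart and higher. Gfi1b, a repressor of the lineage, was at 190.6, 234.3 and 77.1 TPM against 0 to 161.6, and Fli1 at 140.7, 109.8 and 61.6 against 0 to 150.9. Nfe2, the factor of proplatelet formation, was at 91.6, 123.8 and 70.1 TPM against 8.4 to 106.9. These 3 overlapped, with differences of 1.98, 1.77 and 1.27. Gata2, which Gata1 replaces as cells mature, was lower, at 8.7, 9.5 and 2.8 TPM against 1.9 to 209.6 with a median of 40.5. Myb, a factor of progenitors that is low in megakaryocytes, was at 0, 6.5 and 0 TPM against 2.9 to 453.4 with a median of 131.9, a difference of -5.83.

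Within the RUNX family no gene was apart, and the median of the 4 measured was -1.01, with 1 of them higher and 2 lower. It was -1.36 without B1-3, -0.50 without 1A and 0.13 in cells with the prefix B1 alone. The difference for Runx1 was 2.04, smaller than its pooled SD of 2.13. Runx3 was at 7.2, 15.3 and 0.5 TPM against 0 to 120.2 with a median of 21.9. Cbfb, the shared partner of the RUNX proteins, was at 31.6, 43.1 and 10.4 TPM against 13.9 to 151.4 with a median of 112.5, a difference of -1.84 (pooled SD 0.99). All 3 KO MK cells thus stood below the KO NMK median of Cbfb, though inside or near the range. Runx2 was under 1 TPM in all 3 KO MK cells.

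Of 12 cytokine receptors, 5 were at least 1 higher, 2 lower and 3 apart, with a median of 0.21 that was 0.08 without 1B and 0.93 without KO NMK cell B1-5. Over all genes, 31.6% were at least 1 higher, near the share of these receptors, 9.5% at least 1 lower and 4.86% apart and higher. Epor, the erythropoietin receptor, was at 19.4, 22.8 and 18.7 TPM against at most 0.2, and Il6st, the signalling chain of the IL-6 receptor, at 14.3, 9.4 and 8.4 against at most 2.9. Both were apart. Kit, the stem cell factor receptor, was listed at 0 in all 3 KO MK cells against a median of 16.6 TPM, and 10 of 11 KO NMK cells reached 1 TPM.

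Stem and progenitor surface antigens went mostly the other way, with 8 of 15 at least 1 lower, 3 higher, 2 apart and higher and 1 apart and lower. Their median was -1.40, and -0.82 without KO NMK cell 3B. Ly6a, the stem cell antigen Sca-1 (chromosome 15, 74994877-74998031, minus strand), was at 0.1, 0 and 0 TPM against 66.3 to 359.1 with a median of 223.0. Cd53 was at 0.1, 0.1 and 0 TPM against a median of 117.3, and Cd24a at 27.6, 0 and 0 against 180.4. Ly6a was apart, whereas 3 KO NMK cells were under 1 TPM for Cd53 and 2 for Cd24a. Cd34 overlapped, at 353.4, 123.5 and 233.6 TPM against 204.6 to 1075.7.

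The signalling lymphocytic activation molecule gene Slamf1, a marker of stem cells and also of megakaryocyte-biased progenitors, was high, at 309.8, 133.5 and 47.2 TPM against 0 to 23.6. Cd38 was at 46.4, 21.4 and 8.1 TPM and listed at 0 in all KO NMK cells. Cd48, a marker of more committed progenitors, overlapped at 45.3, 42.2 and 32.9 TPM against 0 to 304.1.

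Of 19 stem cell regulators, 7 were at least 1 lower and 3 higher, with 2 apart in each direction and a median of -0.55. Hoxa9, a factor of stem and progenitor cells, was at 0, 0 and 0.1 TPM against 2.2 to 82.4, and Hlf, a factor of stem cell identity, at 0, 0.2 and 0 against 0.9 to 42.1. Mycn, a Myc family factor, stood the other way at 78.3, 183.8 and 208.9 TPM against 0 to 66.9. Pdzk1ip1, a small membrane protein of stem cells, was also apart and higher at 373.3, 271.4 and 603.2 TPM against 0 to 113.4.

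The 15 genes named for the greatest deficit were of several kinds. Adgrl4, an adhesion receptor of endothelium and stem cells, was at 0, 5.3 and 0 TPM against 97.8 to 823.1. Gem, a small GTPase, was listed at 0 in all 3 KO MK cells against 58.6 to 1226.7 TPM. Gstm1, a glutathione transferase, was at 0.1, 0.1 and 2.6 TPM against 44.3 to 222.6. These 3 were apart and lower. Lgals1, the lectin galectin 1, was at 0, 3.5 and 0.2 TPM with a median of 516.9 in the KO NMK cells, but 1 of those was at 0 and the groups overlapped.

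The filament genes Vim and Krt18 were both low. Vim was at 0, 10.3 and 50.6 TPM against 105.8 to 1494.1, and Krt18 at 0, 0.1 and 0 against 0 to 370.3 with a median of 183.3. Lcp1, an actin bundler of leukocytes, was at 0, 0.9 and 0.7 TPM against 21.3 to 130.4, and Selplg, the ligand of P-selectin, at 0, 0.3 and 0.1 against 1.0 to 225.7. Phgdh, the first enzyme of serine synthesis, was at 4.9, 9.3 and 2.8 TPM against 69.4 to 492.2. Vim, Lcp1, Selplg and Phgdh were apart and lower. Igfbp4 (-6.30) and Plp2 (-5.72) were apart as well, while Rgs2 (-5.82) and Ypel3 (-5.67) overlapped.

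Markers of other blood cells were read in the same cells. Of 19 erythroid genes 12 were measured, with 8 at least 1 higher, 1 lower, 2 apart and higher and 1 apart and lower, and a median of 1.39. The globin Hbb-bt was at 1302.1, 34.6 and 43.5 TPM and overlapped KO NMK cells at 0 to 1450.0, and Klf1, Hba-a1 and Hba-a2 were listed at 0 in all 3 KO MK cells. Tfrc, the transferrin receptor, was at 63.8, 128.4 and 78.1 TPM against 0 to 66.8. Blvrb, a biliverdin reductase, was apart and higher at 433.1, 207.8 and 281.5 against 0 to 140.3. The erythroid score was 3.80 to 4.77 in the KO MK cells and 1.13 to 4.82 in the KO NMK cells, so the groups overlapped. The median of the list was 0.73 without 1B and 2.48 without KO NMK cell 1.

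Mast cell and basophil genes were nearly absent, with 2 of 12 measured and a median of -0.27. Of 22 granulocyte-monocyte genes 9 were measured, with none at least 1 higher, 4 lower, 1 apart and a median of -0.68, which was -1.03 without KO NMK cell B1-5. Spi1, the myeloid factor PU.1, was the apart one, at 0, 1.9 and 0 TPM against 14 to 122.0. Lyz2, a macrophage and neutrophil lysozyme with the near copy Lyz1, was present in both groups, at 733.7, 370.1 and 271.6 TPM against 128.1 to 1284.9. The granulocyte-monocyte score was 1.21 to 2.11 in the KO MK cells and 1.95 to 3.42 in the KO NMK cells, and 4.12 to 5.75 in the 2 KO MK cells under the Pf4 limit. Lymphoid genes had 4 of 16 measured with a median of -0.04, 1 of them lower, and stromal-endothelial genes 3 of 12 with a median of -0.33 and none past 1.

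Cell cycle genes differed widely among the 3 KO MK cells. The mitosis score was 6.43 in B1-3, 3.85 in 1A and 2.34 in 1B, against 2.21 to 6.80 with a median of 5.54 in the KO NMK cells. Of 28 mitosis genes, 15 were at least 1 lower, 2 higher and 1 apart and lower, with a median of -1.10. That median was -1.997 without B1-3, -0.14 without 1B and, with the opposite sign, 0.32 in cells with the prefix B1 alone. Ccnb1, the cyclin of mitotic entry, was at 1677.3 TPM in B1-3, above every KO NMK cell (0 to 1317.4), and at 54.0 and 244.9 in 1B and 1A. Aurkb, a kinase of cytokinesis, was at 35.2, 140.8 and 0 TPM in 1B, B1-3 and 1A, against a median of 275.4. Top2a, the topoisomerase of dividing cells, was the 1 apart gene, at 3.6, 40.3 and 1.0 TPM against 56.2 to 180.9.

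DNA replication genes were lower in more of the list, with 22 of 31 at least 1 lower, none higher, 2 apart and a median of -1.73. The score was 5.69 in 1B, 4.23 in B1-3 and 3.34 in 1A, against 4.77 to 6.59. Cell 1B thus lay among the KO NMK cells, and B1-3 and 1A below all of them. Tk1, a thymidine kinase, was at 17.2, 10.3 and 5.2 TPM against 27.4 to 262.1. Mcm5, a subunit of the replicative helicase, was at 32.0, 18.5 and 10.8 TPM against 40.4 to 132.6. Rrm2, which makes DNA building blocks, was at 1029.1 TPM in 1B, near the KO NMK median of 998.4, but at 84.6 and 60.2 in B1-3 and 1A. Ccne1, a cyclin of S phase entry and of endoreplication, was at 107.4 TPM in 1B and listed at 0 in both others.

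**Figure D3:**
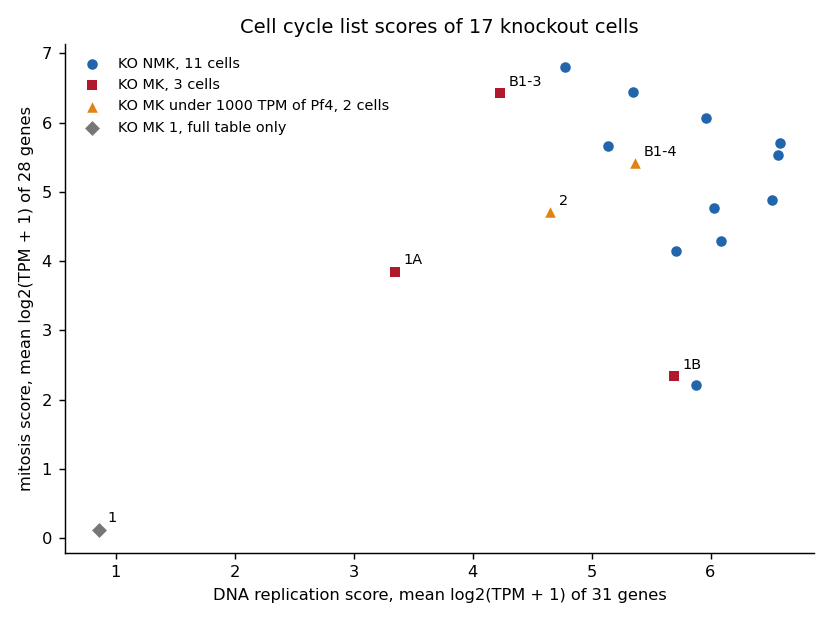
Mitosis score against DNA replication score, each the mean log2(TPM + 1) of its list, for the 3 KO MK cells (squares), the 2 KO MK cells under the Pf4 limit (triangles), KO MK 1 of the full table (diamond) and the 11 KO NMK cells (circles). The squares are far apart, B1-3 at a mitosis score of 6.43, 1B at a replication score of 5.69, and 1A low on both.

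Of 15 brakes and D-type cyclins 5 were at least 1 higher, 4 lower and none apart, with a median of 0.52 that was -0.08 without 1B. Rb1, the retinoblastoma gene, was at 36.4, 32.9 and 44.8 TPM against 0 to 40.3. Cdkn1a, the inhibitor p21, was at 62.4, 186.7 and 4.1 TPM against 21.8 to 423.5. Both overlapped. Of 19 genes of the p53 response 6 were at least 1 higher, 4 lower and 1 apart, with a median of 0.65. Fas, the death receptor, was the apart one, at 9.0, 18.0 and 20.4 TPM and listed at 0 in all KO NMK cells. The p53 score was 4.39 in B1-3, above every KO NMK cell (1.80 to 3.81), and 2.61 and 2.27 in 1B and 1A. Without B1-3 the median of the list was -0.68. Over all genes, 31.6% were at least 1 higher, 9.5% at least 1 lower and 4.86% apart and higher. The counts of higher genes in the brake and p53 lists lay near the first of these shares.

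Interferon response genes, of interest because poly(I:C) was given to every mouse, had a median of 0.20, with 5 of 19 at least 1 higher, 3 lower and 1 apart in each direction. Usp18, the brake on interferon signalling, was at 30.2, 42.9 and 33.0 TPM and listed at 0 in all 11 KO NMK cells. Bst2, the antiviral tetherin, was at 48.4, 55.4 and 17.4 TPM against 101.3 to 501.6. The median of the list was -0.17 without B1-3. Of 20 immediate early and stress genes 6 were at least 1 higher and 7 lower, with 1 apart in each direction (Gadd45g and Gem). Their median of -0.13 was -0.49 without B1-3 and 0.44 without KO NMK cell B1-2b. Myc was at 0, 1.9 and 0 TPM against a median of 32.9, and Dusp1, a phosphatase, was listed at 0 in all 3 against a median of 100.8. Of 15 NF-kB and chemokine genes 3 were at least 1 higher, 4 lower and 1 apart, with a median of -0.36 that was -0.55 without B1-3. Il1b, the cytokine interleukin 1 beta, was the apart one, at 6.5, 20.2 and 43.7 TPM against at most 0.1. Among all genes 31.6% were at least 1 higher, 9.5% at least 1 lower, 4.86% apart and higher and 1.04% apart and lower. The counts of higher genes in the interferon and immediate early lists lay near the first of these shares.

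Ribosome biogenesis genes were low, with 11 of 22 at least 1 lower, none higher, 1 apart and a median of -1.02, which was -0.62 without 1B. Fbl, the nucleolar methyltransferase fibrillarin, was at 41.8, 130.8 and 46.6 TPM against 80.0 to 716.7. Nolc1, a nucleolar scaffold, was the apart one at 1.9, 10.2 and 6.0 TPM against 10.5 to 71.3. Oxidative phosphorylation genes differed little, with 20 of 21 within 1, 1 higher and a median of 0.06. Glycolysis had 13 of 18 within 1, 3 higher, 2 lower, 1 apart and a median of -0.23, which was -0.36 without B1-3 and 0.16 without 1A. Ldha, a subunit of lactate dehydrogenase, was at 1104.1, 1145.6 and 855.5 TPM against 180.4 to 759.1, and Ldhb, the other subunit, at 3.0, 0 and 2.9 against 0 to 184.2 with a median of 53.1. Ldha was thus apart and higher while Ldhb was low.

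Histone genes, many of them near copies, went both ways, with 6 of 22 at least 1 higher, 9 lower, 1 apart in each direction and a median of -0.27, which was -0.50 without 1A. Hist1h2bc was at 114.6, 79.2 and 1252.8 TPM against 0 to 33.0, and Hist1h4d at 18.4, 11.7 and 17.1 against 22.7 to 792.1. Over all genes, 31.6% were at least 1 higher, near the share of histone genes, and 9.5% at least 1 lower. Of 14 housekeeping genes 10 were within 1, 2 higher and 2 lower, with a median of -0.47. Actb was apart and higher at 3192.9, 1983.6 and 2839.0 TPM against 869.1 to 1529.0, and Hprt apart and lower at 217.1, 374.5 and 265.8 against 977.0 to 2428.9. Neither served as a steady reference between these groups.

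The same contrast in WT cells, 6 MK against 9 NMK, shared no cell with the one above and was not used in choosing its members. Across 10584 genes measured in both, the differences had a Pearson r of 0.52 and a Spearman rho of 0.43. Genes are not independent, both contrasts were cut along the same visual classes, and all cells came from 1 kind of library. WT MK cells also had more genes above 0 (14089 to 15252) than WT NMK cells (5475 to 11715). Of the 586 genes apart and higher in KO, 348 (59.4%) were at least 1 higher in WT and 4 at least 1 lower, and 131 were apart in WT too. Of all 12068 genes, 34.7% were at least 1 higher in WT, 4.52% at least 1 lower and 3.84% apart and higher. These 131 were 22.4% of the KO genes and 26.6% of the 493 WT genes. Of the 125 apart and lower, for which the share of all genes apart and lower in WT was 0.373%, 58 (46.4%) were at least 1 lower in WT and 12 at least 1 higher, and 23 were apart in WT too, 18.4% of the KO genes and 51.1% of the 45 WT genes.

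In the WT contrast, all 15 genes named for deficit were at least 1 lower in the MK cells, and 14 of the 15 named for excess at least 1 higher. The exception was Alox12, with a WT difference of 0.16 and at most 2.8 TPM in any WT MK cell. Thbs1 reached 0.4 to 9.3 TPM in WT MK cells and Gp6 0 to 1.0, below the values of all 3 KO MK cells. Slpi reached 0 to 23.1 TPM, a range that holds KO MK cell B1-3 but not 1B or 1A. Pf4 was at 12513 to 19619 TPM in the WT MK cells, and KO MK cell 1B lay above all of them at 26885 TPM. The KO MK cells were selected on Pf4, so their likeness to WT in this gene cannot be read. The knockout and wild-type MK cells were not tested against each other, since no label names their mice.

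Over the 10584 genes measured in both contrasts, the median difference was 0.46 in KO and 0.75 in WT. List medians were higher in KO than in WT for cargo (4.37 and 2.21), adhesion (4.26 and 1.39) and agonist signalling (3.89 and 1.63). The KO MK cells were selected on Pf4, which is in the cargo list, while the WT MK cells were not. With all 5 KO MK cells the KO medians of these lists were 2.832, 2.718 and 2.387. Mitosis was -1.10 in KO and 1.62 in WT, DNA replication -1.73 and 1.09, and ribosome biogenesis -1.02 and 0.96, the last of these near the WT median of all genes. In cells with the prefix B1 alone, 1 of them a KO MK cell, the mitosis median in KO was 0.32, of the same sign as in WT. Ccnb2, a mitotic cyclin, had differences of -1.11 in KO and 4.39 in WT, and Birc5, the mitotic protein survivin, of -1.34 and 4.17. Not all mitosis genes changed sign, and Ccnb1 had 2.64 and 2.84. Tubb5 had -1.77 and 1.28. A difference can change sign through either group of cells. Mean TPM in KO and WT NMK cells was 367.58 and 171.29 for Ccnb2, 294.87 and 113.44 for Birc5, and 1234.6 and 272.54 for Tubb5. In MK cells it was 487.13 and 360.32 for Ccnb2, 138.87 and 212.15 for Birc5, and 394.6 and 508.42 for Tubb5. The KO NMK value was not the higher one for every mitosis gene, as Ube2c had 405.54 against 440.41 in WT NMK cells. The difference between the contrasts, and the part of each group in it, was not tested.

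**Figure D4:**
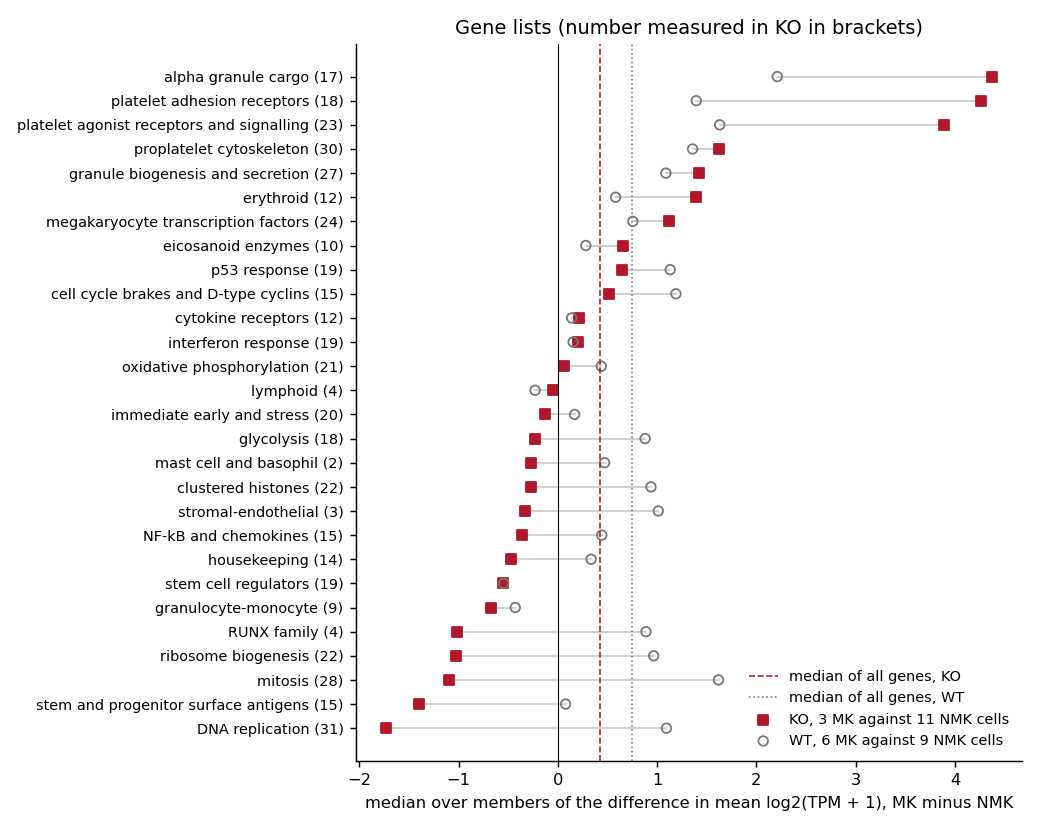
Median difference in mean log2(TPM + 1), MK minus NMK, of 28 gene lists in KO (squares, 3 against 11 cells) and WT (open circles, 6 against 9 cells). The median of all genes is a dashed line at 0.42 in KO, over 12068 genes. A dotted line at 0.75 gives it in WT, over the 10584 genes measured in both contrasts, for which the KO median was 0.46. The 3 platelet lists stand at 3.89 or more in KO, and mitosis, DNA replication and ribosome biogenesis lie below 0 in KO and above 0 in WT.

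The 2 KO MK cells under the Pf4 limit, B1-4 and 2, differed by list. Their scores lay within the KO NMK range for alpha granule cargo (2.54 and 2.57 against 1.42 to 2.86) and adhesion (2.81 to 2.88 against 1.99 to 3.95). Both lay above every KO NMK cell for agonist signalling (4.02 to 4.63 against at most 4.01), granule building (3.75 to 3.99 against at most 3.42) and eicosanoid enzymes (5.38 to 5.65 against at most 5.13). So they did for stem surface antigens (5.661 to 5.985 against at most 4.779) and granulocyte-monocyte genes (4.122 to 5.748 against 3.415). The same held for lymphoid genes (4.043 to 4.051 against 2.805) and the p53 response (4.051 to 5.114 against 3.806). Both cells had more genes above 0 (12215 and 11896) than any KO NMK cell (10987 at most), and its part in these scores was not tested. Fcer1g was at 1692.3 TPM in B1-4 and 2898.0 in 2, against at most 1054.3. Gata1 was at 0 and 5.7 TPM in them, Thbs1 at 0 in both and Alox12 at 0 and 2.1. Of the 586 genes apart and higher, B1-4 lay above every KO NMK cell in 125 (21.3%) and 2 in 117 (20.0%), against 7.37% and 4.31% of all genes. Of the 125 apart and lower, they lay below every KO NMK cell in 37 (29.6%) and 44 (35.2%). The share of all genes below every KO NMK cell was not taken for these cells, so these counts have no background to be read against. Ly6a was at 199.0 and 342.2 TPM in them, within the KO NMK range. Their Runx1 values were 11.9 and 8.9 TPM.

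KO MK 1, which is only in the full table, passed the Pf4 limit with 43254 TPM and had 8205 genes above 0. It lay above every KO NMK cell in 285 of the 586 genes (48.6%), against 7.50% of all genes. It lay below every KO NMK cell in 113 of the 125 (90.4%), against 10.8% of all genes, in a cell with fewer genes above 0 than any of the 3. Clec1b reached 3943.2 TPM and Tubb1 131.0 in it, more than in any of the 3 cells, while Timp3 and Selp were listed at 0. Its mitosis score was 0.12 and its DNA replication score 0.86, under every other knockout cell scored.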

How the data were processed

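Values were the TPM tables that the authors deposited, 1 of all cells and 1 without outliers. The submitters' processing notes name FastQC 0.11.7, cutadapt 1.9.1, STAR 2.6.1e, featureCounts 1.6.2 and mm10. For the annotation, strand setting, TPM step and outlier rule, the sources used here say nothing. Without strand, antisense partners, and with near copies (tubulins, histones, globins, Lyz1 and Lyz2, H2 genes) paralogs, cannot be told apart. Values for 44 of the 90 samples were not analysed here. In addition, 1 column matched no sample and was not used.

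Means of log2(TPM + 1) were compared for genes whose mean reached 1 TPM on either side. Tables were handled in pandas 2.3.3 and numpy 2.4.6 under Python 3.11.15, correlations came from scipy 1.17.1, and plots from matplotlib 3.10.9. The scripts were tested on simulated data. TPM keeps no read depth, so no counting interval could be given.

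The cells and the 28 gene lists were chosen with earlier results of these data known. Named were Pf4, Ppbp, Gata1, the RUNX family and the 15 greatest differences each way. Excess genes had a mean of 10 TPM or more, a size above the pooled SD, the same sign with and without the prefix B1, and all 3 KO MK cells above every KO NMK cell. Deficit genes had all 3 below the KO NMK median and at least 1 TPM in most KO NMK cells. Up to 4 members of each list were added by size, and other members after their values were seen. Alternatives were other pseudocounts, filters, scalings, averages and sets of cells. Gene positions are GRCm38, matched by symbol.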

Additional observations from a re-analysis of the deposited data

Results flagged for a closer look

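4 KO MK cells that stand only in the full table held more Pf4 than each of the 11 KO NMK cells compared (587.0 TPM at most). They also held more than the KO NMK cells left out (841.3 TPM at most). None of the 4 was among the 3 KO MK cells selected, and of them only KO MK 1 was set beside the KO NMK cells. KO MK 1 was at 43254.3 TPM of Pf4, with 3.73% mitochondrial transcripts and a housekeeping score of 8.99. Cell B1-1 was at 3625.1 TPM, B1-1a at 2705.4 and B1-1b at 1601.8. In these last cells mitochondrial transcripts took 71.5%, 74.8% and 94.8% of the total, and the housekeeping scores were 6.69, 5.16 and 3.24, below those of all 14 cells compared.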

How the results depend on the processing

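No paired analysis was possible because each group counted as 1 sample and no result comes from a test. Of the 30 settings, 3 were chosen after seeing the data. Over them, 745 of 839 list medians and 3255 of 3505 differences of named genes moved by less than the spread between cells. No named gene that was apart changed sign. Reversal was not counted for named genes that overlapped, and some of these changed sign. In B1 cells alone, Runx3 went from -1.480 to 2.651, Ddx58 from 1.638 to -1.808 and Cdkn1a from -1.356 to 0.759. The median kept its sign under every setting for 11 of 28 lists: cargo, adhesion, agonist signalling, lineage transcription factors, cytoskeleton, granule building, stem cell regulators, erythroid, DNA replication, ribosome biogenesis and histones. For the other 17 it had the opposite sign under at least 1 setting, among them mitosis at 0.319 in B1 cells alone. The count apart and higher (586) was 330 with a pseudocount of 10, 359 at a mean of 10 TPM, 45 with all 5 KO MK cells, 1052 without prefixed cells, 2775 in B1 cells alone, 285 with KO MK 1 and 1060 against NMK cells with 10000 genes above 0. Leaving out 1 cell gave 620 to 796. The count apart and lower (125) was 24 with all 5 KO MK cells, 4 with all 13 KO NMK cells, 343 without prefixed cells, 821 in B1 cells alone and 368 against NMK cells with 10000 genes above 0. Leaving out 1 cell gave 131 to 225, the highest without B1-3. Smaller sets of cells overlap less by construction, and larger ones more. Genes higher by 2 (1464) numbered 4098 and 250 with pseudocounts of 0.1 and 10, 793 by the ratio of mean TPM, 2268 by medians over cells and 969 with all 5 KO MK cells. Genes lower by 2 (330) numbered 556 and 111 with those pseudocounts, 1010 by the ratio, 151 with all 5 KO MK cells, 187 with all 13 KO NMK cells and 668 with KO MK 1. With pseudocounts of 0.1 and 10, the list medians were 7.404 and 1.858 for cargo, 5.862 and 2.528 for adhesion, and 5.258 and 2.504 for agonist signalling. With a pseudocount of 10 the cytoskeleton was at 0.929 and stem surface antigens at -0.713. By the ratio of mean TPM, adhesion was at 3.459, agonist signalling at 3.101 and the cytoskeleton at 1.208. With all 5 KO MK cells, cargo was at 2.832, adhesion at 2.718, agonist signalling at 2.387, the cytoskeleton at 1.089 and stem surface antigens at 0.681. In B1 cells alone, cargo was at 3.802, adhesion at 2.501, agonist signalling at 3.007, the cytoskeleton at 0.794 and eicosanoid enzymes, reversed, at -0.047. With all 13 KO NMK cells the cytoskeleton was at 2.143, stem surface antigens at -0.363 and DNA replication at -0.856, which was -2.598 with KO MK 1. Cargo was at 5.351 at a mean of 10 TPM, and stem surface antigens at -0.497 with no filter. Leaving out 1 cell gave 4.365 to 5.029 for cargo, 1.330 to 1.662 for the cytoskeleton and -1.552 to -0.815 for stem surface antigens. Median-ratio rescaling moved the median of all genes from 0.425 to 0.606. The cause of the other moves was not tested.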

Other observations

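The genes here were chosen one by one after their values were seen and stand for no group. Gucy1a3 and Gucy1b3, the subunits of the nitric oxide receptor, were at 31.2, 59.3 and 20.6 TPM and at 53.6, 21.4 and 57.1 TPM in KO MK cells 1B, B1-3 and 1A, against at most 10 and 2.1 TPM in the 11 KO NMK cells. Pde5a, which breaks down cyclic GMP, was at 43.1, 29.9 and 54.0 TPM against at most 15. All 3 genes were apart and higher. Mfsd2b, the transporter that exports sphingosine 1-phosphate, was at 67.8, 53.9 and 37.4 TPM and listed at 0 in every KO NMK cell, and S1pr1, a receptor for that lipid, was at 92.2, 129.8 and 73.5 against at most 51.8. Slc6a4, the serotonin transporter, was at 155.0 TPM in 1B but at 6.7 and 10.6 in the others. Ache, the acetylcholinesterase used as a stain for mouse megakaryocytes, was at 11.6, 18.8 and 8.2 TPM and listed at 0 in the KO NMK cells. Pros1, the anticoagulant protein S, was at 228.6, 257.0 and 104.0 TPM against at most 47.8. The WT differences of these 8 genes were all above 1. At least 1 higher in WT were 34.7% of all genes and 59.4% of the 586 apart and higher in KO.

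Other genes were lower in the KO MK cells. H2-K1, a class I heavy chain with close paralogs, was at 38.5, 43.0 and 26.5 TPM against 85.1 to 252.8, and Psmb8, a subunit of the immunoproteasome, at 58.0, 149.1 and 132.0 against 475.6 to 1237.9. B2m, the shared light chain, was also below every KO NMK cell, with a difference of -0.76 in mean log2(TPM + 1). The WT differences were -1.46 for H2-K1, -1.19 for Psmb8 and -1.10 for B2m. Dnmt1, which keeps DNA methylation through replication, was at 2.9, 2.6 and 2.1 TPM against 8.2 to 49.5, with a WT difference of 0.41. Icam2, an adhesion ligand, was at 0, 0 and 0.5 TPM against 8.4 to 73.3, a difference of -4.32, while its WT difference was 1.17. Whether the knockout and WT differences of Dnmt1 and Icam2 differ was not tested.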
